A study of Mus musculus with 4 samples.

Results

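The heat shock proteins and their cochaperones made up 81 of the 55203 genes listed for 4 RNA-seq libraries of mouse intestine. They were chosen by gene symbol, with no measured value in the rule, though earlier results of these data were known. The rule took the Hspa, Hspb, Hsp90, Dnaja, Dnajb and Dnajc families, Hsph1, Hspd1, Hspe1 and the Cct2 to Cct8 symbols, leaving out pseudogene symbols. By symbol they formed 9 subfamilies: 13 Hsp70 genes, 1 Hsp110 gene, 4 DnaJA, 13 DnaJB and 28 DnaJC genes, 3 Hsp90 genes, 8 small heat shock protein (small Hsp) genes, the 2 genes of the mitochondrial chaperonin and 9 genes of the CCT chaperonin. All 81 were protein coding in the GENCODE annotation of GRCm39, and they lay on 19 chromosomes.

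All 4 libraries came from wild-type C57BL/6NTac mice, adult males of 8 to 12 weeks held under specific-pathogen-free (SPF) conditions. In the RVC group, with 2 libraries, the tissue was processed with 4 mM ribonucleoside vanadyl complex, an inhibitor of ribonucleases, and in the fresh frozen group, also with 2 libraries, the labels name freezing as the only handling. The treatment protocol is worded identically for all 4 libraries and describes a rinse with 4 mM RVC, so whether the fresh frozen tissue was rinsed as well cannot be read from it. The series presents these libraries as a bulk reference for an imaging atlas of the gut.

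The sample labels name ileum, while the protocol and the design text name distal colon. Of 7 ileum markers, 4 were listed at 0 in every library and the 7 summed to 5.16 to 6.95 scaled FPKM (fragments mapped per length of transcript and per total of mapped fragments, after scaling the libraries to each other), whereas 6 distal colon markers summed to 3637 to 5380. The libraries reached 72.6% to 100% of the depth of the deepest, fresh frozen 2, judged from the ratio of coverage to FPKM, and their scaling factors lay between 0.992 and 1.01. No 2 libraries shared a batch number, so an effect of batch and one of handling cannot be told apart. Nothing states that libraries came from separate animals, so each p-value measures only the spread between these samples. In bulk tissue a lower value from fewer cells of a type and one from less RNA per cell cannot be told apart.

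Chaperones bind proteins that are not folded and keep them from aggregating. Hsp70 proteins grip short exposed stretches in a cycle driven by ATP, J-domain cochaperones (the DnaJ families) bring them their clients and trigger the ATP step, and Hsp110 proteins reset the cycle by exchanging the nucleotide. Hsp90 acts later, on kinases, receptors and other clients close to their native state, small Hsps hold unfolding proteins without ATP, and the chaperonins enclose clients in ring-shaped chambers, Hspd1 with its lid Hspe1 in mitochondria and CCT in the cytosol, where actin and tubulin are its best-known clients. Heat shock factor 1 switches on a part of these genes under stress through heat shock elements in their promoters, and the unfolded protein response does so for chaperones of the endoplasmic reticulum (ER). In the gut wall, secretory epithelium makes large use of ER chaperones, and several small Hsps are abundant in muscle.

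Promoters were read first, because heat shock genes are known for the elements they hold. The 250 bases before the start of each gene's most abundant transcript were searched on both strands for a heat shock element of 2 units (GAANNTTC or TTCNNGAA), one of 3 units (GAANNTTCNNGAA or TTCNNGAANNTTC, each of which contains shorter elements) and an ER stress element (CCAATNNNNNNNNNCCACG, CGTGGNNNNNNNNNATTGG on the other strand). The short heat shock element was present in 11 of the 68 chaperone genes tested below (16.2%) and in 11.5% of the 13670 promoters of all tested genes. The 3-unit element was present in Hspd1 and Hspe1 among them (2 of 68, 2.94%) and in 0.417% of all promoters. Their matches lie in a stretch that the 2 genes share, which is thus counted for each, here and for the short element. The near-identical promoters of Hspa1a and Hspa1b are likewise counted separately for the short element. The ER stress element was present in Hspa5, Hsp90b1 and Dnajc3 (3 of 68, 4.41%) and in 0.0805% of all promoters, 11 in number. A match is a match of letters and does not show that a factor binds there. The windows are called promoters here, but some lie partly or wholly inside the gene, where another of its transcripts starts upstream. Among genes with an element these include Dnajb4, Hspd1, Hsph1 and Hspa5, and among the others Dnaja1 and Dnaja3.

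The near-identical promoters of the stress-inducible pair Hspa1a and Hspa1b are shown whole, with the heat shock element in capitals (GRCm39, minus strand, chr17:35191133-35191382 and chr17:35178215-35178464). They differ at 3 of 250 bases.
Hspa1a: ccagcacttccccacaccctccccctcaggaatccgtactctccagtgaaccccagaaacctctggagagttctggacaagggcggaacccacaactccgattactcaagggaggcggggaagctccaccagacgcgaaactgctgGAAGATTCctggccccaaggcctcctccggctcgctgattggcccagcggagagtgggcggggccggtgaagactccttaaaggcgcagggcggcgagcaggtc
Hspa1b: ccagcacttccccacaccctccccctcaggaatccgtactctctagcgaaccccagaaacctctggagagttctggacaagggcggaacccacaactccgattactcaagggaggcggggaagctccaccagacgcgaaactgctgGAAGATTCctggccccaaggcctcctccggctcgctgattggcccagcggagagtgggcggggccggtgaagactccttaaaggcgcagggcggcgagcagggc

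Of the other tested genes with a short heat shock element, Dnajb4, Dnajc10, Dnajc12, Dnajc30 and Cct5 are named only. Stretches with the elements in capitals are shown for Hspb1, with 2 separate elements (plus strand, chr5:135916644-135916695), Hsph1 (minus strand, chr5:149559817-149559844), and the stretch shared by Hspd1 and Hspe1, which are transcribed away from each other (chr1:55127212-55127241, minus strand for Hspd1 and plus strand for Hspe1).
Hspb1: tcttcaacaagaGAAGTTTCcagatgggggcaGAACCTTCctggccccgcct
Hsph1: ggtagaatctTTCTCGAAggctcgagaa
Hspd1: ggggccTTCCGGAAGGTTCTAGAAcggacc
Hspe1: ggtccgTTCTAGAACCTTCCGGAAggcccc

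The ER stress elements are in capitals in the following 3, from Hspa5 (plus strand, chr2:34662032-34662060), Hsp90b1, which holds 2 in opposite orientation (minus strand, chr10:86541385-86541532), and Dnajc3 (plus strand, chr14:119175234-119175262).
Hspa5: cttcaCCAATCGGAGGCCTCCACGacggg
Hsp90b1: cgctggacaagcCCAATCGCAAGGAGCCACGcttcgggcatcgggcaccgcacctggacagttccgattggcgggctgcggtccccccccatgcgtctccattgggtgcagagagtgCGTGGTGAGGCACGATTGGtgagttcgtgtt
Dnajc3: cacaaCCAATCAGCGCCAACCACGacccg

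In level, the chaperone genes were led by a few members. Mean scaled FPKM was 100 or more for 4 genes, 10 to 100 for 33, 1 to 10 for 31 and under 1 for 13, and the top 5 genes carried 41.2% of the summed level. Those under 1 were not tested: Dnajb8, Dnajc5g and Hspb3 were listed at 0 in all 4 libraries, and the other 10 (Cct6b, Cct8l1, Dnajb3, Dnajb7, Dnajc27, Dnajc5b, Dnajc6, Hspa12b, Hspa1l and Hspb9) never exceeded 0.815. Of the 68 tested genes, Hspb2 was the only one to reach a mean of 1 through RVC alone, so it had to differ and its part in the counts below supports nothing. Over the subfamilies, the summed level was highest for Hsp70, at 29.7% to 30.7% of all chaperone FPKM per library. DnaJC followed with 17.2% to 17.6%, Hsp90 with 15.2% to 18.1% and CCT with 13.7% to 15.2%, and the ranges of DnaJC and Hsp90 overlapped. The small Hsps held 2.33% to 4.59%.

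**Figure D1:**
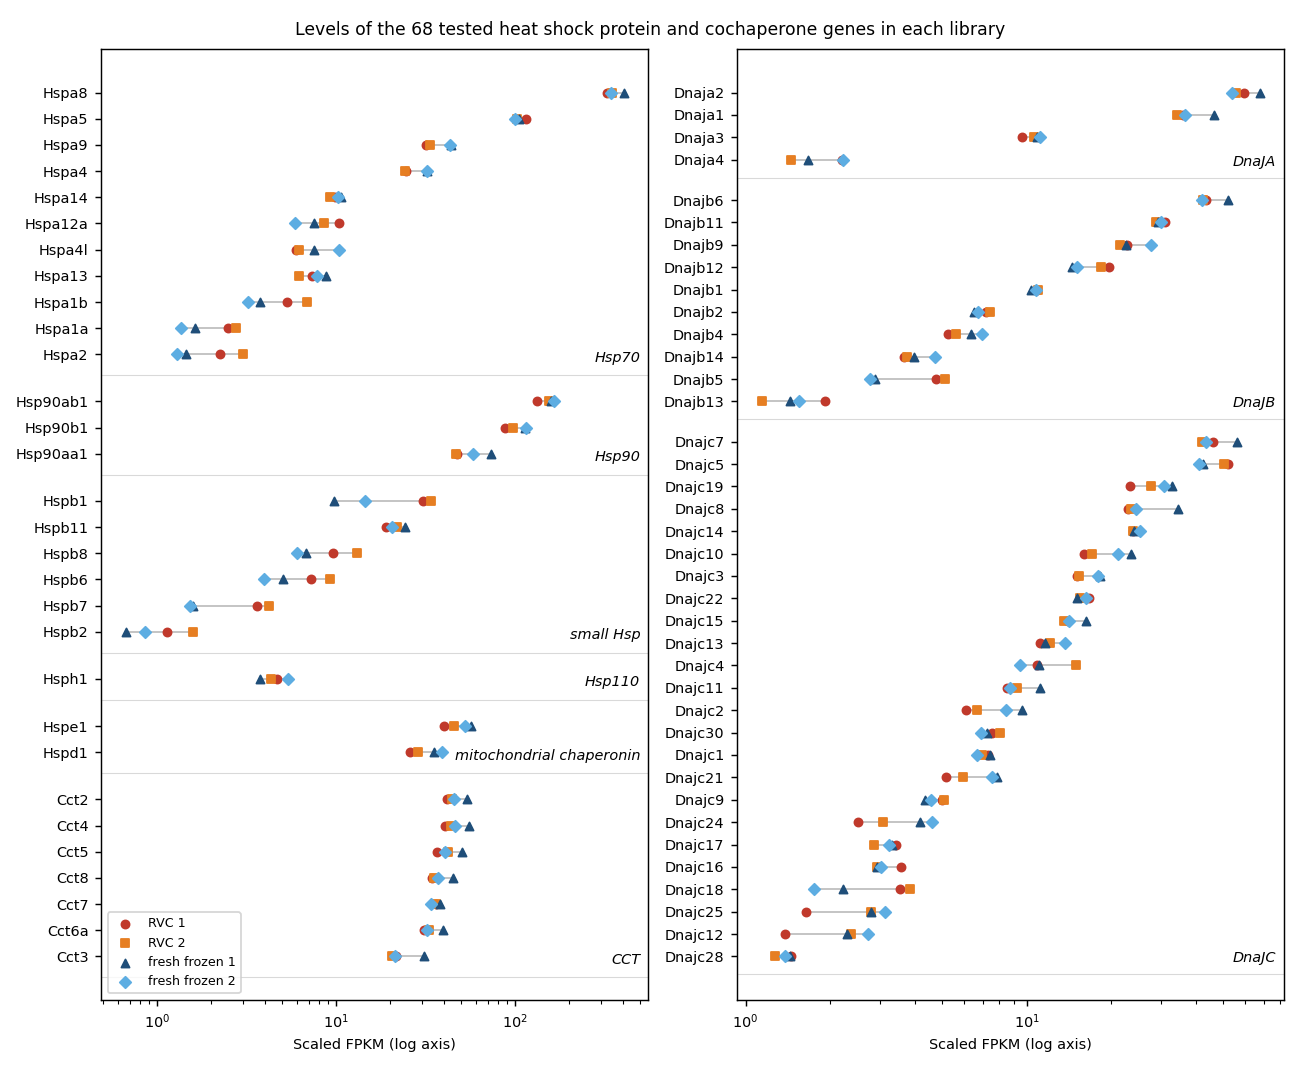
Scaled FPKM (log axis) of the 68 tested chaperone genes, 1 row per gene grouped by subfamily, with 1 symbol per library and a line spanning the 4. Hspa8 lies at the right at 325 to 402, and the widest spans are those of small Hsps such as Hspb1, from 9.77 to 34.0.

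The comparison of RVC with fresh frozen tissue asks how far handling goes with chaperone RNA. Hspb1, Hspb6, Hspb7 and Hspb8 were higher in both RVC libraries, together with Hspa1a, Hspa1b, Hspa2, Dnajb5 and Dnajc18. So was Hspb2, which had to differ because it passed the filter on low values only through RVC. The mitochondrial chaperonin, Hspa9, Hspa4, all 3 Hsp90 genes and several DnaJC genes were lower in both. None of the 68 passed the limma test at an adjusted p of 0.05, where 0.0363% of the 13771 tested genes did (5 genes, 0.0145% higher and 0.0218% lower in RVC), and the smallest adjusted p was 0.0743, for Hspb1. At an unadjusted limma p under 0.05 stood 25 of 68 chaperone genes (36.8%), 13 higher (Hspb2 among them) and 12 lower in RVC, against 18.4% of all tested genes (9.38% higher and 8.99% lower). Without RVC 1 that count was 14, of which 3 were lower, and it was 29 without fresh frozen 2.

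The 2 RVC values did not overlap the 2 fresh frozen values for 43 of the 68 genes (63.2%), against 53.2% of all tested genes. Of these, 17 were higher in RVC (Hspb2 among them, 25.0%, background 26.5%) and 26 were lower (38.2%, background 26.6%). The median log2 fold change of the 68 genes, RVC minus fresh frozen, was -0.12, beside 0.01 for all tested genes, and 43 of the 68 lay below 0. Without fresh frozen 1 the median was -0.03. That library held the highest of the 4 values for 28 of the 68 genes (41.2%), against 27.4% of all tested genes. The median absolute log2 difference per gene was 0.10 within RVC, 0.15 within fresh frozen and 0.23 between the groups.

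**Figure D2:**
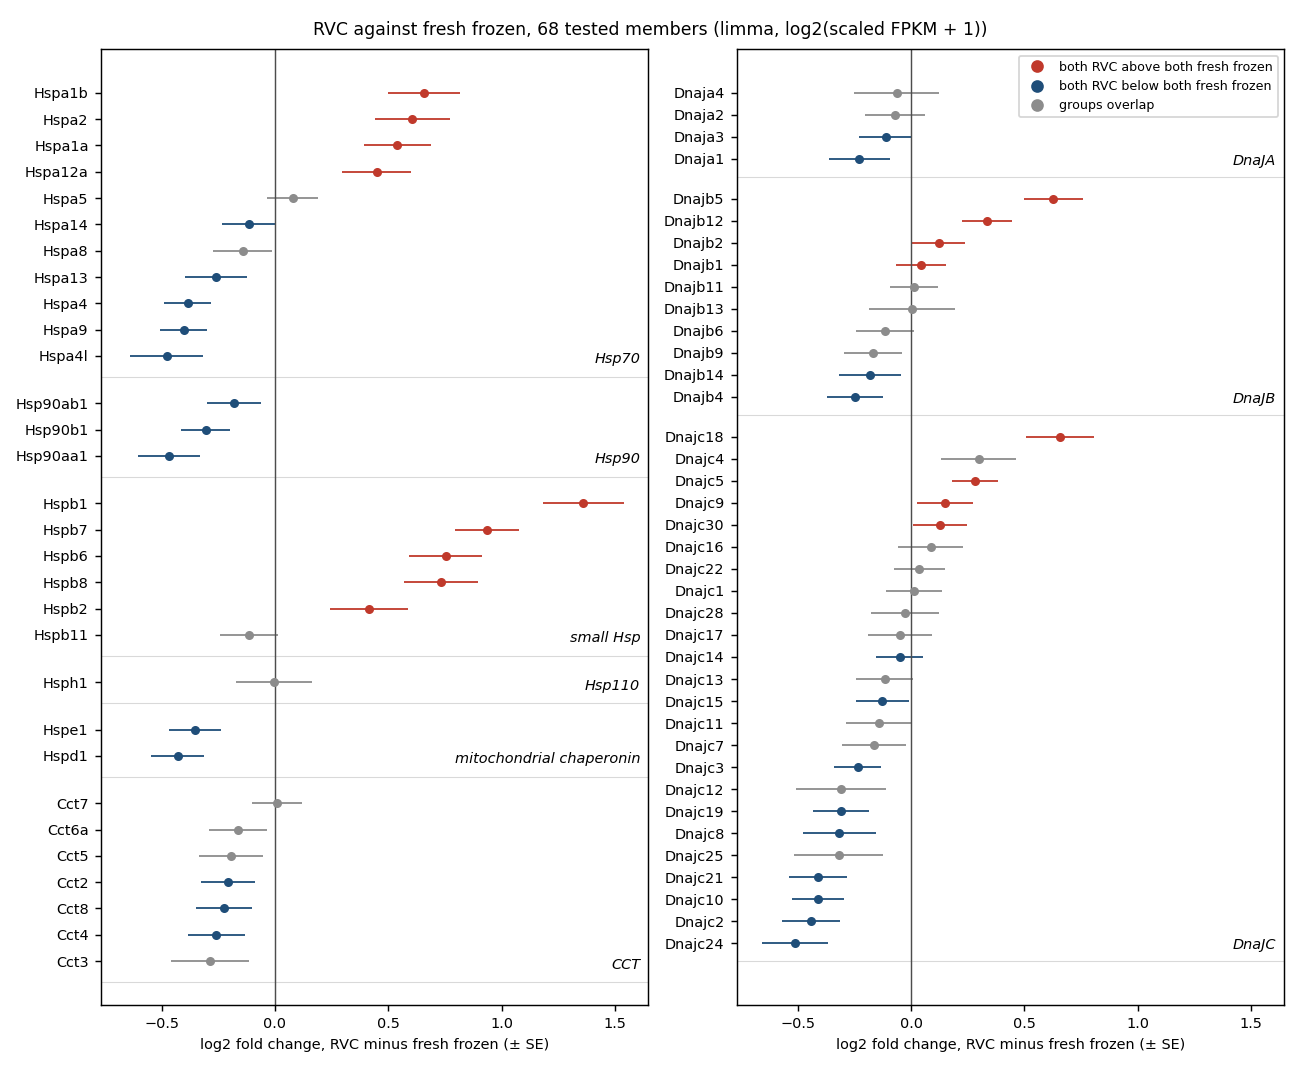
Log2 fold change (RVC minus fresh frozen, limma, ± SE) of the 68 tested chaperone genes on log2(scaled FPKM + 1), by subfamily. Red marks genes with both RVC libraries above both fresh frozen libraries, blue the reverse and grey overlapping groups, and the small Hsps lie farthest to the right, up to 1.36 for Hspb1.

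Among the Hsp70 genes, Hspa8 encodes the constitutive cytosolic Hsp70 and was the most abundant chaperone RNA, with scaled FPKM of 325 and 346 in the RVC libraries and of 402 and 341 in the fresh frozen ones. It supplied 60.2% to 64.4% of the Hsp70 sum. The groups overlapped, fresh frozen 1 was the high library, and the log2 fold change was -0.14 ± 0.13 (SE, limma adjusted p = 0.574), or -0.02 without fresh frozen 1. Hspa8 exons overlap small nucleolar RNA genes and a gene on the other strand, and the counting by strand is not given in the sources used here. Hspa5 encodes BiP, the Hsp70 of the ER, and measured 114 and 102 in RVC and 105 and 99.3 in fresh frozen. Its groups overlapped too, with a log2 fold change of 0.08 (limma adjusted p = 0.724).

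The 2 inducible genes stood far below Hspa8. Hspa1b measured 5.29 and 6.90 in RVC and 3.75 and 3.19 in fresh frozen, and Hspa1a had 2.49 and 2.76 against 1.62 and 1.36. Both were higher in both RVC libraries, with log2 fold changes of 0.66 ± 0.16 for Hspa1b (limma adjusted p = 0.137) and 0.54 ± 0.15 for Hspa1a (0.157). Hspa8 was 41.8 and 35.8 times the sum of the pair in RVC and 74.9 and 74.8 times in fresh frozen.

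The values of the pair are uncertain as separate values. Hspa1a (chr17:35188166-35191132) and Hspa1b (chr17:35175412-35178214) are single-exon genes on the minus strand whose coding sequences are 99.4% identical, and 38.1% of the 150-base words of Hspa1a occur in Hspa1b, so reads can be divided between them. Their ratio, Hspa1b over Hspa1a, stayed within 2.13 to 2.50, and their sum was 7.78 and 9.66 in RVC and 5.37 and 4.56 in fresh frozen. Hspa2, an Hsp70 best known from spermatogenesis, was at 2.24 and 3.00 in RVC and 1.45 and 1.28 in fresh frozen (log2 fold change 0.61 ± 0.16, limma adjusted p = 0.156). The groups did not overlap, and 5 of 5 sperm and testis markers were listed at 0 in every library.

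Of the 11 tested Hsp70 genes, 4 were higher in both RVC libraries (background 26.5%): Hspa1a, Hspa1b, Hspa2 and Hspa12a. Hspa12a had a log2 fold change of 0.45 (limma adjusted p = 0.207). Lower in both were 5 (background 26.6%): Hspa9, Hspa4, Hspa4l, Hspa13 and Hspa14. Hspa13 and Hspa14 had log2 fold changes of -0.26 and -0.12. Hspa9, the Hsp70 of the mitochondrial matrix, measured 31.6 and 33.5 in RVC and 43.7 and 43.0 in fresh frozen (log2 fold change -0.40 ± 0.10, limma adjusted p = 0.146). Hspa4, a nucleotide exchange factor of the Hsp110 type despite its symbol, measured 24.5 and 24.1 against 32.1 and 32.0 (-0.39 ± 0.10, limma adjusted p = 0.152). In both genes the RVC pair and the fresh frozen pair each lay close together and apart from the other. Taking only its most abundant transcript, the log2 fold change of Hspa4 was -0.14. Hsph1, the Hsp110 gene named for heat induction, measured 4.66 and 4.32 in RVC and 3.76 and 5.38 in fresh frozen, with the fresh frozen values on either side of the RVC ones. Its log2 fold change was -0.01 (limma adjusted p = 0.991). The sign turned with the setting, at 0.07 with transcripts under 300 nucleotides left out and 0.21 without fresh frozen 2. Its leading transcript, of 3802 nucleotides, held between 2.00% and 54.6% of the gene's FPKM depending on the library.

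The DnaJA cochaperones, partners of cytosolic Hsp70 with the mitochondrial Dnaja3 as the exception, showed no separation by group in their sum, which was 106.8 and 101.9 in RVC and 126.5 and 103.7 in fresh frozen (exact permutation p = 0.667). Dnaja2 led with 59.1 and 55.5 in RVC and 67.4 and 53.9 in fresh frozen. Dnaja1 measured 35.9 and 34.2 against 46.5 and 36.5, with fresh frozen 1 high, and its log2 fold change of -0.23 (limma adjusted p = 0.393) was -0.06 without that library. Dnaja3 lay between 9.64 and 11.2 and Dnaja4 between 1.45 and 2.22.

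The DnaJB sum was the most even of all, at 151.6 and 145.6 in RVC and 151.0 and 149.3 in fresh frozen. Its leading genes were Dnajb6, known as a suppressor of protein aggregation, at 41.9 to 51.9, and the ER cochaperones Dnajb11, at 28.9 to 31.2, and Dnajb9, at 21.4 to 27.6. Dnajb1, the classic heat-inducible partner of Hspa1a, measured 10.9 and 11.0 in RVC and 10.4 and 10.8 in fresh frozen (log2 fold change 0.04, limma adjusted p = 0.853). That difference is smaller than its standard error, 0.11. Dnajb4, likewise heat-inducible, measured 5.24 and 5.63 against 6.36 and 6.92 and was lower in both RVC libraries (-0.25, limma adjusted p = 0.324).

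Dnajb5 and Dnajb12 were the DnaJB genes farthest above 0. Dnajb5 had 4.74 and 5.12 in RVC and 2.89 and 2.78 in fresh frozen (log2 fold change 0.63 ± 0.13, limma adjusted p = 0.129). Dnajb12, a cochaperone in the ER membrane, had 19.6 and 18.4 against 14.5 and 15.1 (0.34 ± 0.11, limma adjusted p = 0.195). Neither pair of groups overlapped.

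The DnaJC family is held together by the J domain alone, and its members work at separate sites. Its sum was 310.1 and 318.0 in RVC and 353.1 and 321.4 in fresh frozen (exact permutation p = 0.33, the smallest that 2 libraries against 2 allow). Dnajc7, an adaptor between Hsp70 and Hsp90, was the highest in fresh frozen, with 45.9 and 41.9 in RVC and 55.9 and 43.4 in fresh frozen. Dnajc5, the cysteine string protein of secretory vesicles, was the highest in RVC, with 51.9 and 50.2 against 42.5 and 41.0 (log2 fold change 0.28 ± 0.10, limma adjusted p = 0.220). Dnajc18 was the DnaJC gene farthest above 0, with 3.54 and 3.86 in RVC and 2.23 and 1.75 in fresh frozen (0.66 ± 0.15, limma adjusted p = 0.132), and its fold change was 0.12 for its most abundant transcript alone.

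Of the 24 tested DnaJC genes, 9 were lower (background 26.6%) and 4 higher (background 26.5%) in both RVC libraries. Dnajc10, an ER reductase with a J domain, measured 16.0 and 17.1 in RVC and 23.6 and 21.2 in fresh frozen (log2 fold change -0.41 ± 0.11, limma adjusted p = 0.158). Dnajc2, a cochaperone on the ribosome, measured 6.09 and 6.66 against 9.60 and 8.45 (-0.44, limma adjusted p = 0.163), and Dnajc21, which takes part in ribosome assembly, 5.16 and 5.94 against 7.82 and 7.55 (-0.41, limma adjusted p = 0.181). Dnajc24, an enzyme cofactor in diphthamide synthesis, measured 2.51 and 3.07 against 4.17 and 4.62 (-0.51 ± 0.14, limma adjusted p = 0.161). In these 4 genes both RVC libraries lay below both fresh frozen libraries. Dnajc8, linked to splicing, was set apart by fresh frozen 1 alone, with 34.4 there and 22.9 to 24.5 in the other libraries.

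All 3 Hsp90 genes were lower in both RVC libraries (background 26.6%). Their sum was 267 and 297 in RVC and 346 and 337 in fresh frozen (exact permutation p = 0.33). Hsp90ab1, the constitutive cytosolic form, measured 132 and 154 in RVC and 158 and 165 in fresh frozen (log2 fold change -0.18, limma adjusted p = 0.432), and -0.07 without RVC 1. Hsp90aa1, the inducible cytosolic form, measured 47.1 and 46.6 against 73.6 and 57.7 (-0.47 ± 0.14, limma adjusted p = 0.165), and -0.30 without fresh frozen 1. Hsp90b1, the ER form known as GRP94, measured 87.7 and 96.8 in RVC and 114 in each fresh frozen library (-0.30 ± 0.11, limma adjusted p = 0.216). The constitutive form exceeded the inducible one in every library, by 2.15 to 3.30 times, with overlapping groups. The Hspa1a and Hspa1b pair and Hsp90aa1, both heat-inducible, thus lay on opposite sides of 0.

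**Figure D3:**
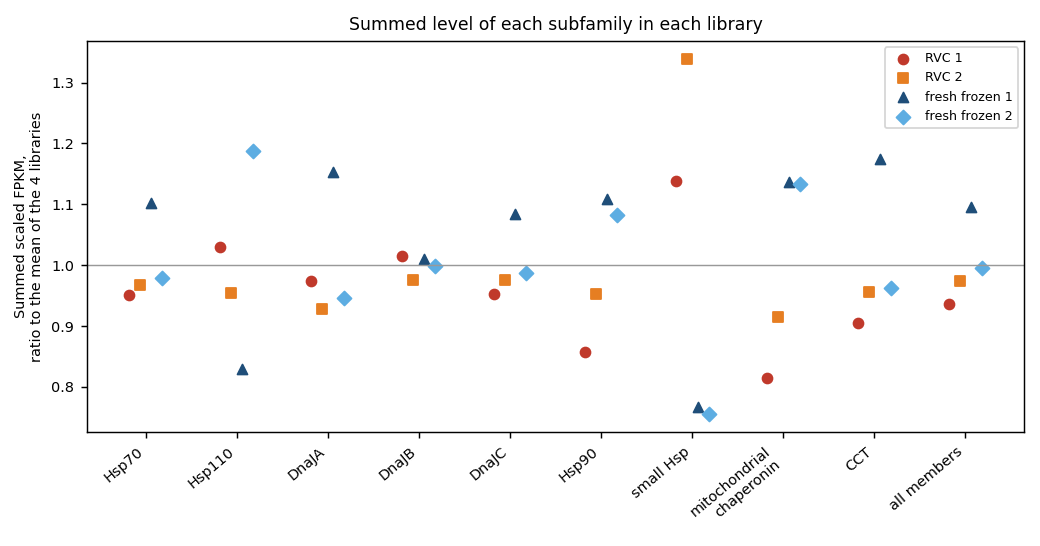
Summed scaled FPKM of each chaperone subfamily in each library, divided by the mean of the 4 libraries, with 1 symbol per library. Small Hsps are high in both RVC libraries (71.3 and 83.9 scaled FPKM against 48.0 and 47.3), and the mitochondrial chaperonin is low in both. Fresh frozen 1 stands alone at the top for Hsp70, DnaJA, DnaJC and CCT, and for all chaperone genes together.

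The small Hsp sum was 71.3 and 83.9 in RVC and 48.0 and 47.3 in fresh frozen, a ratio of means of 1.63 (77.6 ± 8.90 against 47.7 ± 0.526, SD, n = 2 each, exact permutation p = 0.33). Hspb1 (chr5:135916773-135918417, plus strand, 3 exons in its leading transcript), a stress-responsive regulator of actin filaments, measured 30.3 and 34.0 in RVC and 9.77 and 14.4 in fresh frozen. Both RVC values were more than the larger fresh frozen value multiplied by 2. The log2 fold change was 1.36 ± 0.18 (SE, limma adjusted p = 0.0743), the largest of the 68 genes. It was the one chaperone gene to pass without fresh frozen 2 (1.62, limma adjusted p = 0.0178), and its adjusted p ranged from 0.00373 to 0.402 over the alternatives.

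The 4 small Hsp genes known chiefly from muscle went the same way, though Hspb2 counts only as a description. Hspb7 had 3.61 and 4.19 in RVC and 1.59 and 1.53 in fresh frozen (log2 fold change 0.94 ± 0.14, limma adjusted p = 0.112). Hspb6, a relaxation-linked protein of smooth muscle, had 7.27 and 9.18 against 5.02 and 3.93 (0.75 ± 0.16, limma adjusted p = 0.129). Hspb8, the partner of Bag3 in clearing misfolded proteins, had 9.59 and 13.1 against 6.74 and 6.00 (0.73 ± 0.16, limma adjusted p = 0.130). In each of these 3 the groups did not overlap and RVC 2 was the highest library. Hspb2 had 1.14 and 1.58 against 0.671 and 0.856. It passed the filter on low values only through RVC, so its values are a description with no test, and its exons overlap Cryab on the other strand. Hspb11, a component of intraflagellar transport named with the family, did not follow them, with 19.1 and 21.8 in RVC and 24.1 and 20.4 in fresh frozen (-0.11, limma adjusted p = 0.651).

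Smooth muscle markers were higher in the same libraries. All 12 of 12 markers were higher in both RVC libraries, and none was at 0. Their sum was 1663 and 2460 in RVC and 1067 and 1117 in fresh frozen, in scaled FPKM. Of all tested genes, 26.5% were higher in both RVC libraries, 26.6% were lower in both and the rest overlapped. These shares are the background for every marker count in this paragraph. Their median log2 fold change was 0.83, and it was 0.54 without RVC 2. Per 1000 of the smooth muscle sum, Hspb1, Hspb2, Hspb6, Hspb7 and Hspb8 together had 31.2 and 25.2 in RVC. In fresh frozen they had 22.3 and 23.9. Hspb1 alone gave 18.2 and 13.8 of this in RVC and 9.16 and 12.9 in fresh frozen. What the other genes added overlapped between the groups. Markers of endothelium were higher in RVC too (5 of 5, sums of 18.2 to 18.7 against 9.51 to 11.6). So were those of plasma cells (4 of 4 tested, sums of 817 to 924 against 306 to 530). Of 8 epithelial markers, 3 were higher without overlap and 5 overlapped between groups, with sums of 5148 to 5466 against 4728 to 5222. Fibroblast markers overlapped in 6 of 6 (sums of 182 to 215 against 181 to 187), and of 4 tested markers of enteric neurons and glia 1 was higher without overlap (sums of 19.9 to 24.8 against 15.6 to 21.0). Macrophage markers (5 of 6 higher without overlap, sums of 53.0 to 53.3 against 30.8 to 39.2) and immediate early genes, which respond to handling stress (6 of 8, sums of 183 to 217 against 163 in each), were higher as well. The part of cell makeup or handling stress in these small Hsp values was not tested.

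**Figure D4:**
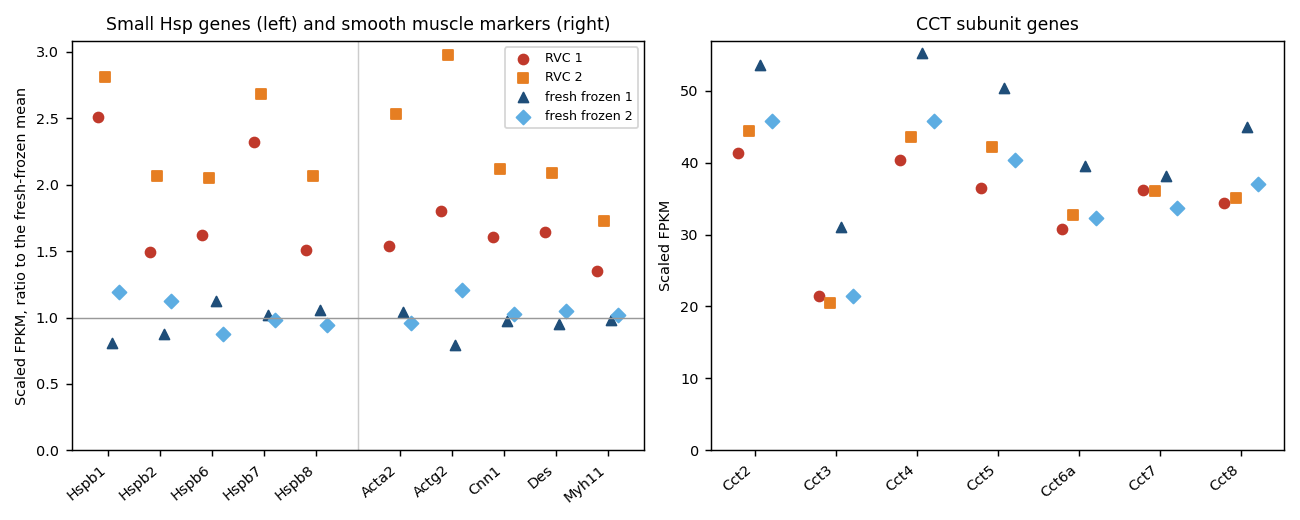
Left, scaled FPKM of 5 small Hsp genes and 5 smooth muscle markers divided by the mean of the fresh frozen libraries; right, scaled FPKM of the 7 expressed CCT genes; 1 symbol per library. The RVC symbols lie above the fresh frozen ones for all 10 genes on the left, where Hspb2 passed the filter on low values only through RVC. Fresh frozen 1 is the top symbol for all 7 genes on the right (background 27.4%).

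The mitochondrial chaperonin was lower in RVC, with a sum of 65.8 and 74.0 against 91.9 and 91.5 in fresh frozen (ratio of means 0.762, exact permutation p = 0.33). Hspd1, which forms the chamber, measured 25.7 and 28.7 in RVC and 34.9 and 38.9 in fresh frozen (log2 fold change -0.43 ± 0.12, limma adjusted p = 0.156). Hspe1, its lid, measured 40.1 and 45.3 against 56.9 and 52.6 (-0.35 ± 0.11, limma adjusted p = 0.194). Neither gene's groups overlapped. Hspe1 exceeded Hspd1 by 1.35 to 1.63 times in scaled FPKM, and this ratio overlapped between groups. The 2 genes start within the same stretch and overlap at their ends, so reads there cannot be assigned without strand.

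Mitochondrial chaperones outside the chaperonin lay on both sides of 0. All 7 tested genes of the mitochondrial list (Hspa9, Hspd1, Hspe1, Dnaja3, Dnajc11, Dnajc15 and Dnajc19) were below 0, 6 of the 7 without overlap (background 26.6% in this direction) and 4 at an unadjusted limma p under 0.05 (background 8.99%). Mitochondrial genes that the list leaves out went both ways. The J-domain gene Dnajc30 (log2 fold change 0.13) was higher in both RVC libraries. In the wider network so were Clpb (0.14) and the protease Clpp (0.26), whereas Tomm70a (-0.46) and Trap1 (-0.22) were lower in both. The groups overlapped for the protease Lonp1 (0.04), Hscb (-0.08), Clpx (-0.06), Grpel2 (-0.02) and Grpel1 (-0.01). The list was thus not a sample of all mitochondrial chaperones, and these unlisted genes were named after their values were seen. The median log2 fold change of the 7 listed genes was -0.31, and it was -0.19 without RVC 1. Dnajc19, of the import motor in the inner membrane, measured 23.3 and 27.8 in RVC and 32.8 and 30.7 in fresh frozen (-0.31, limma adjusted p = 0.253).

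The 7 expressed CCT genes encode subunits of one ring. Within a library the highest exceeded the lowest by 1.78 to 2.17 times, with a coefficient of variation of 19.5% to 23.4%. Cct2 measured 41.3 and 44.3 in RVC and 53.6 and 45.8 in fresh frozen, Cct4 measured 40.3 and 43.5 against 55.2 and 45.8, and Cct5 measured 36.5 and 42.1 against 50.4 and 40.3. Cct8 measured 34.4 and 35.0 against 45.0 and 37.0. Fresh frozen 1 was the highest library for all 7 (background 27.4%). In both RVC libraries 3 of the 7 were lower (background 26.6%), and 4 overlapped between groups, where 53.2% of all tested genes did not. Cct7 was nearly level, at 33.7 to 38.1. Their median log2 fold change was -0.21, with fresh frozen 1 left out -0.04 and with fresh frozen 2 left out -0.35. Tcp1, the subunit gene whose symbol falls outside the choice, was also highest in fresh frozen 1, with 51.8 and 48.7 against 64.9 and 56.6.

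By compartment and by inducibility the chaperones were mixed. Of 11 listed ER chaperone genes, 1 was higher (background 26.5%) and 5 were lower (background 26.6%) in both RVC libraries. The median of their log2 fold changes was -0.18, or -0.08 without fresh frozen 2. ER genes that the list leaves out went both ways. Dnajc18 (0.66), Serpinh1 (0.55) and Hyou1 (0.19) were higher in both RVC libraries. Sec63 (-0.17) and Dnajc14 (-0.05) were lower in both, and Sil1 (-0.01) overlapped. The list was thus not a sample of all ER chaperones, and these unlisted genes were named after their values were seen. The 3 genes with an ER stress element did not share a direction: Hspa5 overlapped between groups, while Hsp90b1 and Dnajc3 were lower in RVC. Dnajc3, an ER-lumen cochaperone of BiP, measured 15.1 and 15.3 in RVC and 18.2 and 18.0 in fresh frozen (-0.24, limma adjusted p = 0.288). Hspa5 over Hsp90b1 was 1.30 and 1.05 in RVC and 0.921 and 0.870 in fresh frozen.

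The list of 13 heat-inducible genes also holds Hspa8 and Hsp90ab1, described above as constitutive, so its counts and median are not of inducible genes alone. Of the 13, 5 were higher without overlap (background 26.5%), namely Hspa1a, Hspa1b, Hspb1, Hspb8 and Dnajb1. Another 6 were lower (background 26.6%), namely Hsp90aa1, Hsp90ab1, Hspd1, Hspe1, Dnaja1 and Dnajb4. The median log2 fold change of the 13 was -0.14, or -0.06 without fresh frozen 1. Hspa8 and Hsph1, the other two, overlapped. Of the 6 genes printed with a heat shock element, Hspa1a, Hspa1b and Hspb1 were higher in both RVC libraries (background 26.5%). Hspd1 and Hspe1 were lower (background 26.6%), and Hsph1 overlapped. These 6 are not independent, because Hspa1a and Hspa1b are near-identical and Hspd1 and Hspe1 share 1 stretch. Of the tested genes with the element that were named only, Dnajc30 was higher, Dnajb4 and Dnajc10 were lower, and Dnajc12 and Cct5 overlapped (same backgrounds). Hsf1, the heat shock factor itself, measured 3.85 and 3.56 in RVC and 3.11 and 3.66 in fresh frozen (0.10, limma adjusted p = 0.705).

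Other genes of the chaperone network, 51 in all with 50 tested, gave 0 at a limma adjusted p under 0.05 and 13 at an unadjusted p under 0.05 (background 18.4%), 7 higher (background 9.38%) and 6 lower (background 8.99%). Their median log2 fold change was -0.02, and it changed sign without RVC 1 (0.03) or without fresh frozen 1 (0.01) and was -0.12 without fresh frozen 2. Cryab, a small Hsp of muscle and lens, was the farthest above 0, with 13.8 and 14.9 in RVC and 8.24 and 8.89 in fresh frozen (0.68 ± 0.12, limma adjusted p = 0.123). Unc45a, the myosin chaperone, and Hspbp1, a nucleotide exchange factor of Hsp70, were also higher in both RVC libraries, by 0.49 and 0.55. On the lower side were Tomm70a, a receptor for mitochondrial import, at -0.46, the Hsp90 activator Ahsa2 at -0.40 and the Hsp90 cochaperone Ptges3 at -0.35, with limma adjusted p from 0.155 to 0.196 for these 3.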

How the data were processed

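In all 4 libraries, total RNA was depleted of ribosomal RNA and sequenced as pairs of 150 bases, per the labels' protocols. Per the submitters' processing notes, TopHat2 2.1.1 and Cufflinks 2.2.1 were used, with genome GRCm39. The annotation release, strand setting and read counts are not given in the sources used here. The authors deposited FPKM per transcript with confidence bounds, a status and a coverage signal, per the file headers. FPKM is not a count, so no count model was used. Reads that fit several transcripts are shared out by Cufflinks' model.

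FPKM was summed per gene, scaled by median ratios and tested with limma 3.58.1 (R 4.3.3, trend, two-sided, Benjamini-Hochberg over 13771 genes) on log2(scaled FPKM + 1), which understates the change of low genes. Tested genes had a mean of at least 1, a transcript of at least 300 nucleotides and status OK throughout. The coverage signal deposited by the authors served only for relative depth. Sums were compared by an exact two-sided permutation test, whose smallest p is 0.33. The fit was tested on simulated data. Named genes were the 4 highest of each subfamily, the heat-inducible list, the 8 with the smallest p per direction without overlap, the 5 with the widest range and those at 0; others named for a compartment, a group or an exception were chosen after their values were seen. Members and lists were chosen with earlier results of these data known. Transcript starts and gene types came from GENCODE vM39. Alternatives covered the pseudocount, scaling, filters, transcript choice, trend, block and leaving out each library.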

Additional observations from a re-analysis of the deposited data

How the results depend on the processing

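The count of all genes called by limma, 5, depended on most settings: 0 without a filter on low values, 0 with transcripts under 300 nucleotides left out, 0 without the trend, 2 with a mean of at least 5, 1 with each gene's most abundant transcript alone, and 14 to 30 with 1 library left out, where the lone library of a group is assumed to vary like the others. The chaperone genes called, 0, became 1 without fresh frozen 2 (0 with any other library left out). With the replicate block on the sample number, 112 genes were called, 2 of them chaperone genes, Hspb1 (adjusted p = 0.00373) and Hspb7 (0.0323). Nothing states that the numbers pair samples, and the deviations of same-numbered libraries correlated at -0.13 over 13771 genes, so a crossed replicate block was added after seeing the data and called 12 genes, 0 of them chaperone genes. Chaperone genes at an unadjusted p under 0.05, 25, numbered 14 to 29 with 1 library left out, and their median log2 fold change lay between -0.12 and -0.030. With the most abundant transcript, 5 of 9 subfamilies kept their rank by summed level. The Hsp110 log2 ratio turned to 0.049, and the fold change of Hsph1 to 0.067, without short transcripts; leaving out 1 library moved Hsph1 between -0.22 and 0.21, to 0.04 without RVC 2. Of 352 alternative values for 24 chaperone genes, 346 kept their direction and side of the threshold, 3 turned, all of Hsph1, and 3 passed the threshold. The causes were not tested. With 2 libraries a group and no read counts, small differences in genes of low FPKM could not be resolved.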
